A study of Mus musculus with 18 samples.

Results

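The liver transcripts described here are 9 genes of the glucocorticoid response: the receptor gene Nr3c1 and Fkbp5, Tsc22d3, Zbtb16, Sgk1, Errfi1, Dusp1, Mt1 and Mt2. They were found by symbol, and all 9 are among the 19057 gene symbols measured. The list was chosen by knowledge of the pathway with the differences among Con, STZ, A10-FMT and Con-FMT in these libraries already known. The values of the AOS and STZ+AOS libraries were known too. For the members, the STZ and Con mice, and each transplanted group and STZ, are therefore set side by side as a description, with counts of calls but no p-value for a member. Member p-values printed for the other contrasts are descriptions as well, not independent evidence.

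Liver RNA was sequenced from male ICR mice, an outbred stock, labelled as 10 weeks old, in 6 groups of 3 libraries. Con mice were controls on regular diet and saline. STZ mice received streptozotocin, a toxin of insulin-producing beta cells, as a model of type 1 diabetes. A10-FMT mice received streptozotocin and then, by mouth, pooled small-intestinal microbiota of donors dosed with alginate oligosaccharide (AOS, a seaweed-derived oligosaccharide) at 10 mg/kg. Con-FMT mice received streptozotocin and the pooled microbiota of control donors. The labels add an AOS group (AOS 10 mg/kg without streptozotocin) and an STZ+AOS group (both agents). The streptozotocin model limits the groups as a glucocorticoid experiment: no mouse was given or deprived of the hormone, and corticosterone was not measured in these files.

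Glucocorticoids enter cells and bind the receptor encoded by Nr3c1, which is held ready by heat shock protein complexes, moves to the nucleus and binds glucocorticoid response elements (GREs) in DNA. In liver the hormone promotes gluconeogenesis and amino acid breakdown, opposes insulin, and follows a daily rhythm and stress. Several of its targets feed back on the response: the Fkbp5 protein lowers the receptor's affinity for the hormone, and Dusp1 and Tsc22d3 restrain inflammatory signalling.

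Values are RPKM, reads per kilobase of transcript scaled to the mapped reads of the library, which can be compared between genes because they are per length. Differences are in log2(RPKM + 1) from limma, and a gene was called where its Benjamini-Hochberg adjusted p over all genes tested was under 0.05. In STZ against Con the median of all 10602 genes tested was 0.21 above 0, with 3502 genes called higher and 585 lower. After scaling libraries by median ratios it was near 0, with 1480 higher and 1391 lower, so member differences stand beside that shift. STZ+AOS against AOS had the same median of 0.21, with 3441 genes called higher and 661 lower, and 1323 and 1325 after scaling. The groups compared did not overlap for 47.7% of genes tested in STZ against Con and 49.1% in STZ+AOS against AOS. For A10-FMT and Con-FMT against STZ the shares were 21.5% and 17.7%. Members whose groups do not overlap stand beside these shares.

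Several libraries stood apart. The first principal component (57.0% of the variance) placed STZ 3 at 0.18, far from STZ 1 and STZ 2 at 45.9 and 46.4. Con 3 lay between Con 1 and Con 2 for 98.0% of the 148 genes in which those differed at least 2-fold, at a median position of 0.526 of the way from Con 2 to Con 1 on the RPKM scale. AOS 3 lay between AOS 1 and AOS 2 for 96.5% of 141 such genes, at 0.353 of the way from AOS 2 to AOS 1. The other 16 libraries did so for 10.4% to 84.6% of theirs. Whether Con 3 and AOS 3 share RNA with the other libraries of their group was not tested. Some counts and calls are also given without them, but most list counts, spreads and correlations are given only with them. The labels do not say that libraries come from separate mice, so p-values measure the spread between libraries. Each library is called a mouse here.

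STZ+AOS 3 held transcripts of the pancreas: Ctrb1, chymotrypsinogen, was 36.5 RPKM there and at most 0.61 in every other mouse, and Prss2, a trypsinogen, 7.74 and at most 0.40. Member calls in STZ+AOS against AOS are also given with that library left out, but correlations are not. Hepatocyte markers summed to between 33470 and 54580 RPKM in every library, and lymphocyte markers to at most 2.73. In whole liver, fewer cells of a type and less RNA per cell cannot be told apart.

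Promoter sequence was examined for the elements through which glucocorticoids and metals act. The RefSeq promoter windows (GRCm38.p6, 250 bases before to 50 after an annotated start) cover 7 members, in 15 windows; Zbtb16 and Nr3c1 have no entry. A complete palindromic GRE, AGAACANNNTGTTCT, occurred in 1 of the 15, upstream of an Sgk1 start, and in 3 of all 32851 windows (0.00913%). The metal response element (MRE) core, TGCACNC or TGCGCNC on either strand, is the site of the zinc-sensing factor Mtf1. It occurred 3 times in the Mt1 window and 4 times in the Mt2 window, and once each in the Dusp1 window (6 bases before the start) and in an Sgk1 window. Thus 4 of the 15 member windows held it, and 25.7% of all windows did, so holding a copy does not set the members apart. The single element AGAACA, on either strand, was in 19.0% of all windows; among members it was in 1 Tsc22d3 and 3 Sgk1 windows, including the copies within the palindrome. Printed here are stretches before the starts of Sgk1, for the palindrome, and of Mt1 and Mt2, for the windows with several MREs, with these elements in capitals. They are chr10:21993640-21993739 for Sgk1, chr8:94178989-94179088 for Mt1 and chr8:94172368-94172617 for Mt2, all on the plus strand of GRCm38.
Sgk1: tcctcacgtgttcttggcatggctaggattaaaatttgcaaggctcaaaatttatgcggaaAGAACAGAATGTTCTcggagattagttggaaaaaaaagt
Mt1: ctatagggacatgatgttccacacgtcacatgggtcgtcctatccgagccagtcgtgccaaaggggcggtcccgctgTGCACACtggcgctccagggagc
Mt2: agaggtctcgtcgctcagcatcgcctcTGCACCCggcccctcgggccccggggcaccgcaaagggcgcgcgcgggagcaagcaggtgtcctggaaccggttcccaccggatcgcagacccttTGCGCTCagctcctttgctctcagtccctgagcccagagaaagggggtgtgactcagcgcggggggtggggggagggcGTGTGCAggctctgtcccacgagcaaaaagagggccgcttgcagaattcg
The Sgk1 palindrome begins 189 bases before the annotated start. The remaining MREs of Mt1 and Mt2 lie after the annotated starts. A match of letters is not a measured binding site, and elements outside these windows were not searched.

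Nr3c1 encodes the glucocorticoid receptor and had the narrowest range of the members. Its RPKM was 11.5, 12.9 and 11.6 in Con 1 to Con 3, 14.1, 14.3 and 13.9 in STZ, and 11.5, 11.9 and 12.2 in A10-FMT. It was 11.2, 12.4 and 9.91 in Con-FMT, 14.0, 14.3 and 13.6 in AOS, and 13.3, 14.2 and 15.6 in STZ+AOS. The STZ, AOS and STZ+AOS mice all stood above all mice of Con, A10-FMT and Con-FMT, and within each of these sets the neighbouring groups overlapped. The difference of STZ from Con was 0.22 ± 0.09 (log2, SE), equal to the median of all genes, and -0.03 after median-ratio scaling. A10-FMT differed from STZ by -0.23 ± 0.09 and Con-FMT by -0.32 ± 0.09.

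Fkbp5 (chromosome 17, 28399094 to 28517527, minus strand, GENCODE M21) encodes the co-chaperone that closes the receptor's feedback loop. Its RPKM was 3.85, 4.83 and 4.54 in Con and 21.5, 29.2 and 9.97 in STZ. Every STZ mouse exceeded every Con mouse, as in 4322 of all 10602 genes tested. STZ 3 reached less than the other STZ mice. A10-FMT mice had 9.54, 7.16 and 12.3 and Con-FMT mice 9.34, 5.33 and 13.7, between Con and STZ and overlapping STZ at its lowest mouse. In AOS it was 6.46, 6.33 and 6.39, a narrow range above all Con mice, and in STZ+AOS it was 26.1, 14.5 and 49.9. The order of the means was STZ+AOS, STZ, A10-FMT, Con-FMT, AOS and Con, and each neighbouring pair overlapped except AOS and Con. The STZ mean, 20.2 ± 9.69 (SD, n = 3), was 4.59 times the Con mean of 4.41 ± 0.503 (SD, n = 3), a difference of 1.86 ± 0.36 on the log2 scale.

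Tsc22d3 (chromosome X, 140539528 to 140600659, minus strand) encodes GILZ, the glucocorticoid-induced leucine zipper, a classic target of the receptor. It did not follow Fkbp5. Its RPKM was 33.0, 73.8 and 54.1 in Con and 34.2, 45.6 and 57.8 in STZ. The transplanted mice had 43.8, 37.6 and 60.6 (A10-FMT) and 43.6, 45.0 and 60.6 (Con-FMT). It was 73.1, 37.0 and 48.3 in AOS and 30.9, 34.0 and 39.2 in STZ+AOS, the group with the lowest mean. Each group in the order of means overlapped the next. The range among the 3 Con mice alone was 2.24-fold, and the difference of STZ from Con was -0.18 ± 0.29.

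Zbtb16 (chromosome 9, 48654297 to 48836222, minus strand) encodes PLZF, a zinc finger transcription factor that glucocorticoids induce. Its RPKM was 1.28, 1.32 and 1.15 in Con and 3.25, 6.65 and 4.21 in STZ. In A10-FMT it was 1.14, 0.82 and 1.41, with 2 mice below the lowest Con mouse, 1 above the highest, and all below every STZ mouse. In Con-FMT it was 2.11, 1.74 and 2.98, above every Con and every A10-FMT mouse and below every STZ mouse. In AOS it was 3.64, 2.04 and 2.55, and in STZ+AOS 6, 2.30 and 11.0, a 4.79-fold range. STZ differed from Con by 1.30 ± 0.20. Relative to STZ, A10-FMT differed by -1.39 ± 0.20 and Con-FMT by -0.77 ± 0.20. Because these levels are near the pseudocount of 1, the log2 differences understate the ratios: the STZ mean was 3.76 times the Con mean.

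Sgk1 (chromosome 10, 21882184 to 21999903, plus strand) encodes a serum- and glucocorticoid-regulated kinase that acts on ion transport and FoxO factors. Its RPKM was 5.62, 6.18 and 5.47 in Con and 20.9, 42.3 and 20.4 in STZ. After transplantation it was 10.6, 7.24 and 12.1 (A10-FMT) and 17.8, 10.7 and 14.7 (Con-FMT). It was 9.08, 6.46 and 7.49 in AOS and 24.9, 23.6 and 55.1 in STZ+AOS. All mice of STZ and STZ+AOS stood above all mice of the other groups, and all Con mice stood below all others. The STZ mean of 27.9 ± 12.5 (SD, n = 3) was 4.84 times that of Con, a difference of 2.01 ± 0.27. Relative to STZ, A10-FMT differed by -1.34 ± 0.27 and Con-FMT by -0.85 ± 0.27.

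Errfi1 (chromosome 4, 150853919 to 150868892, plus strand) encodes Mig6, an inhibitor of the EGF receptor. Its RPKM was 243, 343 and 299 in Con and 427, 427 and 641 in STZ, which did not overlap. A10-FMT mice, at 401, 283 and 462, and Con-FMT mice, at 324, 443 and 458, overlapped both. AOS mice had 402, 292 and 334 and STZ+AOS mice 442, 379 and 769. The difference of STZ from Con was 0.74 ± 0.23, and 0.47 after median-ratio scaling.

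Dusp1 (chromosome 17, 26505590 to 26562128, minus strand) encodes a phosphatase that switches off MAP kinases. Its RPKM was 12.1, 12.1 and 12.4 in Con, a narrow range, and 15.8, 14.2 and 17.9 in STZ, all above Con. A10-FMT mice had 16.4, 14.4 and 12.3 and Con-FMT mice 10.9, 21.4 and 11.1, each group overlapping Con. AOS mice had 24.1, 6.85 and 13.5 and STZ+AOS mice 21.1, 14.0 and 61.9, ranges of 3.52-fold and 4.42-fold. The difference of STZ from Con was 0.36 ± 0.21, and 0.11 after median-ratio scaling.

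**Figure D1:**
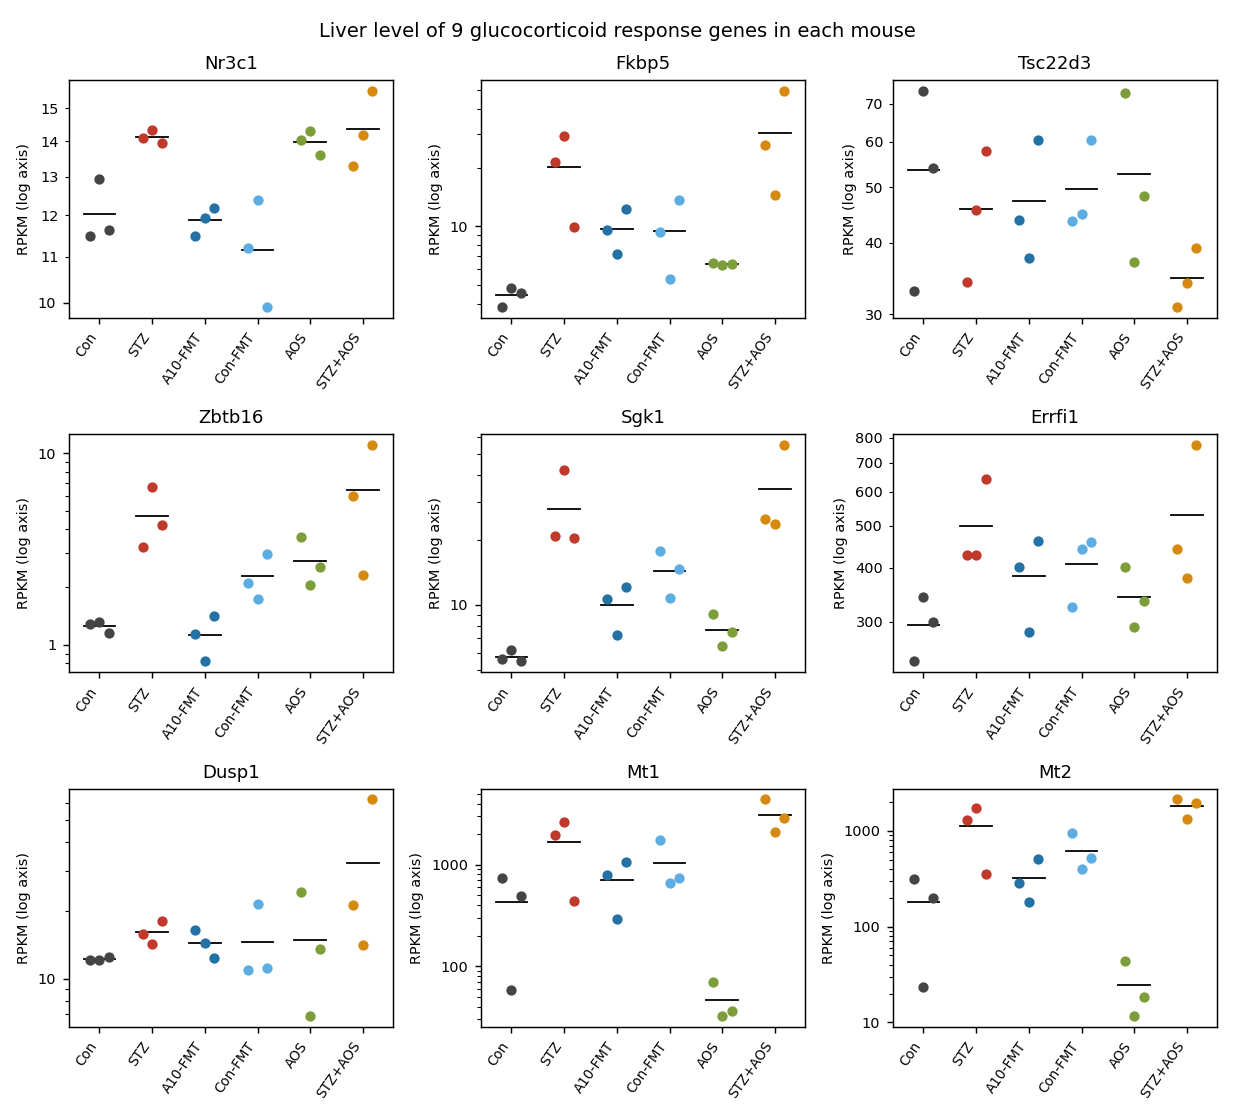
RPKM on a log axis for each of the 9 genes, 1 point per mouse in the 6 groups, with a bar at the group mean (n = 3). Fkbp5, Zbtb16, Sgk1 and the metallothioneins have their highest group means in STZ+AOS and STZ, Nr3c1 spans only 9.91 to 15.6, and the Con mice differ 12.7-fold in Mt1.

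Mt1 and Mt2 encode metallothioneins, small proteins that bind zinc and copper and are induced by metals, glucocorticoids and inflammation. The genes are neighbours on the plus strand of chromosome 8, Mt2 at 94172664 to 94173568 and Mt1 at 94179082 to 94180327, with 5513 bases between them. Mt1 RPKM was 736, 58.1 and 493 in Con and 1978, 2607 and 441 in STZ. A10-FMT mice had 795, 288 and 1057 and Con-FMT mice 1756, 654 and 736. It was 70.2, 32.5 and 36.1 in AOS and 4384, 2081 and 2884 in STZ+AOS. STZ overlapped Con because of STZ 3, while the AOS and STZ+AOS mice were far apart.

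Mt2 followed the same order in every group mean. Its RPKM was 311, 23.4 and 199.8 in Con and 1289, 1719 and 349.8 in STZ. A10-FMT mice had 282, 179 and 503 and Con-FMT mice 947, 396 and 518. AOS mice had 43.8, 11.7 and 18.4 and STZ+AOS mice 2114, 1318 and 1964. STZ and Con did not overlap for Mt2, by a small margin. The difference of STZ from Con was 2.24 ± 0.93 for Mt1 and 3.0 ± 0.87 for Mt2. The pair had a Pearson r of 0.990 over the 18 libraries and 0.973 after group means were removed, a description over libraries that share groups. The ratio of Mt1 to Mt2 was not constant, however, ranging from 1.26 in STZ 3 to 2.82 in A10-FMT 1. The coding regions are alike, so how reads were divided between them is uncertain.

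Of the 9 genes the metallothioneins had the widest spread among controls, 12.7-fold for Mt1 and 13.3-fold for Mt2. In Con 1, Con 2 and Con 3, Saa1, a serum amyloid of the acute phase response that was picked after its values were seen, was 6422, 296 and 3569.8 RPKM, the same order. Lcn2, another acute phase gene picked likewise, was 1043, 47.5 and 612. In STZ 1 and STZ 2 Mt1 was 1978 and 2607 while Saa1 was 28.0 and 454. In STZ 3 Mt1 was 441, within the range of Con, and Saa1 was 46.4. In STZ+AOS Mt1 was at least 2081 in every mouse while Saa1 was 3430 in 1 mouse and 199.8 and 33.6 in the others. In STZ against Con 38.5% of all genes were called, and 585 of 10602 were lower. There the acute phase list of 18 genes held 8 called lower and 0 higher (median -0.99). The count was 3 without Con 1, 13 without Con 2 and 4 without Con 3. The genes with the smallest adjusted p were Saa4 (-1.90 ± 0.40, adjusted p = 0.00454), Saa2 (-5.44 ± 1.23, adjusted p = 0.00655), Saa3 (-3.33 ± 0.83, adjusted p = 0.00995) and Apcs (-2.22 ± 0.57, adjusted p = 0.0115). With AOS given to both groups, STZ+AOS against AOS, 2 were called higher, Orm2 (3.68 ± 1.23, adjusted p = 0.0290) and Orm3 (2.63 ± 0.91, adjusted p = 0.0337), and 0 lower, but 0 in either direction without AOS 3. The part of the acute phase in the metallothionein levels was not tested.

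**Figure D2:**
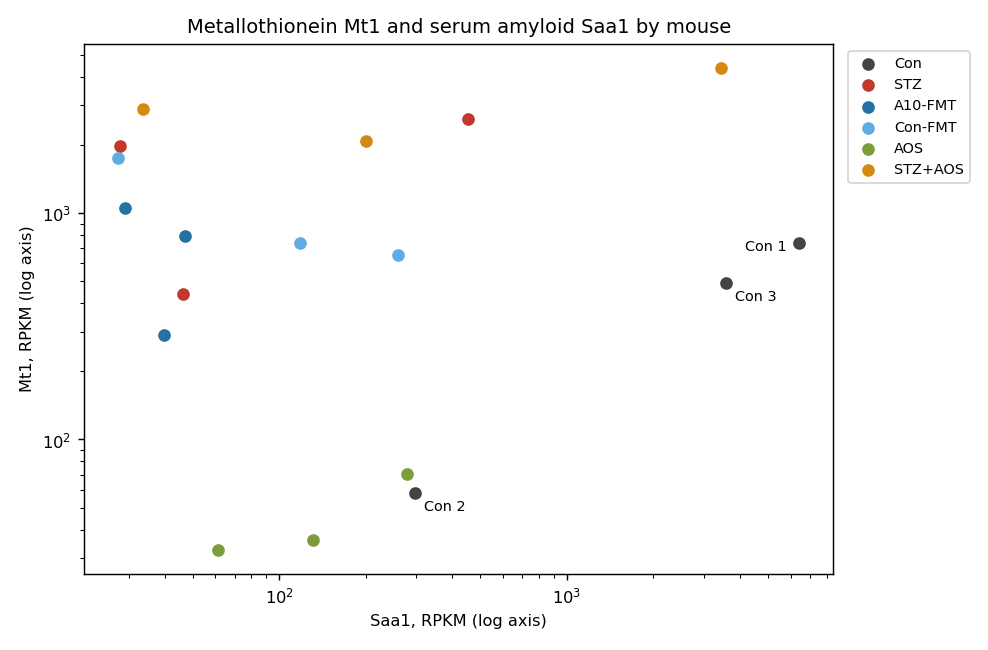
Mt1 against Saa1 in each of the 18 libraries, both in RPKM on log axes, coloured by group with the Con mice named. Con 1 and Con 3 are high in both, and Con 2 and the AOS mice are low in Mt1. The STZ and STZ+AOS mice other than STZ 3 have high Mt1 at Saa1 values from 28.0 to 3430, and STZ 3 lies within the Con range of Mt1.

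In STZ against Con 5 of the 9 members were called higher (Fkbp5, Zbtb16, Sgk1, Errfi1 and Mt2) and 0 lower, where 38.5% of all genes tested were called. The median of the members was 1.30. Nothing is read from that count, because this contrast was known when the list was drawn up. Without Con 3 it was 4, Errfi1 being lost at a difference of 0.76.

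STZ+AOS against AOS compares mice with and without streptozotocin when both received AOS. The groups compared share no library with STZ or Con, but the fit took its variance from all 18 libraries. These values too were known, so the p-values of members here are descriptions and not independent evidence. The timing of the agents in these groups is not given in the sources used here. In this contrast 4 of the 9 members were called higher by limma and 0 lower, where 37.9% of all genes tested were called. The median member difference was 0.95 against 0.21 for all genes. Mt2 was 6.30 ± 0.80 higher (adjusted p = 0.000133) and Mt1 6.06 ± 0.83 higher (adjusted p = 0.000215), ratios of means of 72.9 and 67.3. Sgk1 was 1.94 ± 0.31 higher (adjusted p = 0.000512) and Fkbp5 1.91 ± 0.40 higher (adjusted p = 0.00248), each in 3 of 3 mice. These 4 genes were also called with Con 3 and AOS 3 left out (limma adjusted p 0.0162 for Fkbp5, 0.00577 for Sgk1, 0.00321 for Mt1 and 0.00214 for Mt2). Without STZ+AOS 3, the library with pancreatic transcripts, they were at 1.47 for Fkbp5, 1.55 for Sgk1, 6.08 for Mt1 and 6.23 for Mt2, all called. Zbtb16 (0.82 ± 0.34, adjusted p = 0.0660), Dusp1 (0.95 ± 0.44, adjusted p = 0.0963) and Errfi1 (0.57 ± 0.26, adjusted p = 0.0970) did not pass. Leaving out STZ+AOS 2, the mouse lowest in all 3, brought each of them past the threshold, for 7 called. Leaving out STZ+AOS 3 gave 0.38 for Zbtb16, 0.36 for Dusp1 and 0.27 for Errfi1, none called. Tsc22d3 differed by -0.54 ± 0.29 (adjusted p = 0.146). Nr3c1 differed by 0.03 ± 0.09 (adjusted p = 0.785), and by -0.20 after median-ratio scaling.

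**Figure D3:**
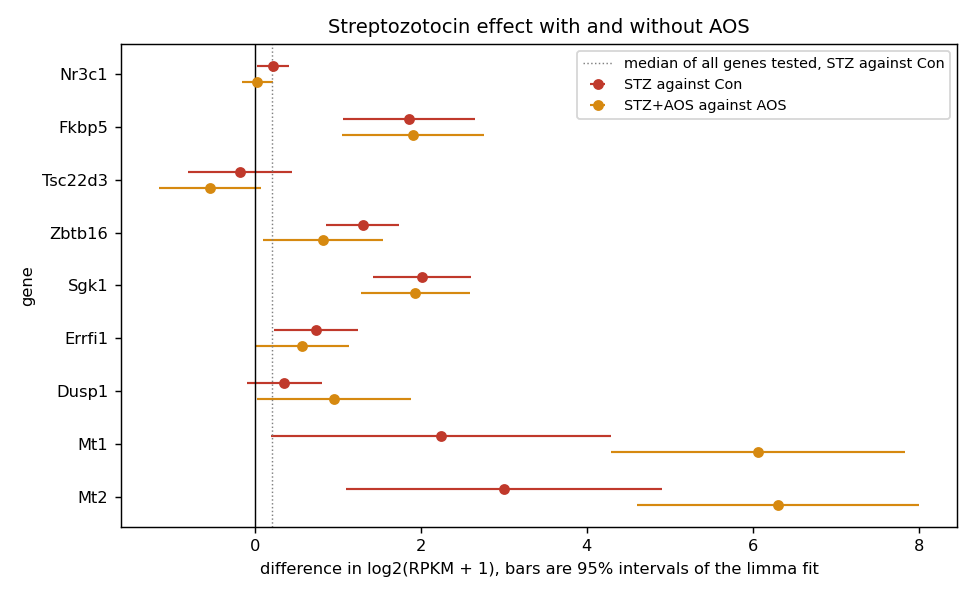
Difference in log2(RPKM + 1) for each member in STZ against Con and in STZ+AOS against AOS, with 95% intervals of the limma fit and a dotted line at the median of all genes tested. Fkbp5 (1.86 and 1.91) and Sgk1 (2.01 and 1.94) nearly coincide, while the metallothioneins are at 2.24 and 3.0 without AOS and at 6.06 and 6.30 with it.

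The difference between these contrasts was tested directly. Limma called 0 of the 9 members and 0 genes in all (0% of those tested), and 2 members had an unadjusted p under 0.05. These were Mt1, whose streptozotocin effect was larger with AOS by 3.82 ± 1.18 (95% interval 1.32 to 6.32, adjusted p = 0.856), and Mt2, larger by 3.31 ± 1.13 (0.90 to 5.71, adjusted p = 0.856). For both genes the AOS mean was below that of Con and the STZ+AOS mean above that of STZ. For Fkbp5 the interval of the difference was -1.16 to 1.25 and for Sgk1 -1.01 to 0.85. Differences of either sign within those intervals are compatible with these data from 3 mice a group.

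In AOS against Con limma called 0 of the 9 members, where 0.00924% of genes were called, with 3 members at an unadjusted p under 0.05. Mt1 was lower by -2.64 ± 0.83 (adjusted p = 0.542) and Mt2 by -2.37 ± 0.80 (adjusted p = 0.586), with Con 2 within the range of the AOS mice for both. Nr3c1 was higher by 0.20 ± 0.09 (adjusted p = 0.660). All AOS mice stood above all Con mice for Nr3c1, Fkbp5, Zbtb16 and Sgk1, 4 of 9 members, where 24.4% of all genes did not overlap in either direction. In STZ+AOS against STZ limma called 0 members and 0 genes (0%), with 0 members at an unadjusted p under 0.05. The largest member difference was 1.18 ± 0.83 for Mt1 (95% interval -0.59 to 2.95, adjusted p = 0.811). No member separated the groups, where 5.13% of all genes did.

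The microbiota groups show how these genes stood when streptozotocin was followed by transplantation. In A10-FMT against STZ 1 of the 9 members was called lower, Zbtb16, where 0.226% of genes were called. In Con-FMT against STZ limma called 0 of 9, where 0.00943% of genes were called, and 4 members had an unadjusted p under 0.05 in each of these contrasts. Over all 10602 genes 2212 and 2131 had one. Nothing is read from these counts, since both contrasts were known when the list was drawn up, and they share the STZ mice. The means of all members but Tsc22d3 were below STZ in both transplanted groups. For Fkbp5 A10-FMT differed by -0.90 ± 0.36 and Con-FMT by -0.99 ± 0.36, and for Mt2 by -1.64 ± 0.87 and -0.66 ± 0.87. The counts rested on STZ 3: without it, 3 members were called lower in A10-FMT (Zbtb16, Sgk1 and Fkbp5) and 4 in Con-FMT (those and Nr3c1). Calls over all genes rose greatly as well, as counted under the dependence on processing, so nothing about the members is read from this gain. The Zbtb16 call in A10-FMT was lost when any A10-FMT mouse or STZ 2 was left out, at log2 differences from -1.16 to -1.49.

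A10-FMT and Con-FMT differ in the donors' treatment. Limma called 0 of the 9 members and 0 genes in all (0%) between them, with 1 member at an unadjusted p under 0.05. That was Zbtb16, lower in 3 of 3 A10-FMT mice by -0.62 ± 0.20 (95% interval -1.06 to -0.17, adjusted p = 0.999), with a mean 0.493 times that of Con-FMT. The groups did not overlap for 8.92% of all genes. For Fkbp5 the interval was -0.71 to 0.88, for Sgk1 -1.08 to 0.10 and for Mt1 -2.64 to 1.44.

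A list of 23 other genes induced by glucocorticoids in liver or other tissues was examined beside the members, of which 21 passed the filter. This list and those that follow were also drawn up with earlier results of these libraries known, so their counts are not independent evidence. All list counts, those of the acute phase included, stand beside the share of all genes called. That share was 38.5% in STZ against Con and 37.9% in STZ+AOS against AOS. In STZ against Con 17 were called higher and 0 lower (median 1.40), where 38.5% of all genes were called, 3502 of 10602 higher. The smallest adjusted p belonged to Pck1, the rate-limiting enzyme of gluconeogenesis (2.76 ± 0.29, adjusted p = 0.000292), Lpin1, a phosphatidate phosphatase (3.17 ± 0.35, adjusted p = 0.000342), Nfkbia, the inhibitor of NF-κB (1.40 ± 0.16, adjusted p = 0.000348), and Igfbp1, an insulin-suppressed binding protein (4.16 ± 0.54, adjusted p = 0.000564). In STZ+AOS against AOS 18 were called higher and 0 lower (median 1.29). Pck1 was at 1.91 ± 0.26 (adjusted p = 0.000207), Sds, which degrades serine, at 1.91 ± 0.26 (adjusted p = 0.000223), Usp2 at 2.52 ± 0.42 (adjusted p = 0.000672) and the clock repressor Per1 at 2.42 ± 0.42 (adjusted p = 0.000824). With Con 3 and AOS 3 left out the count in STZ+AOS against AOS was 14.

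Some of these genes answer to more than the hormone. Pck1, Igfbp1 and Irs2 are also repressed by insulin. The parts of lost insulin and of glucocorticoids in the list cannot be told apart in this design. Tat, tyrosine aminotransferase, a textbook glucocorticoid target, was 456 ± 123 RPKM (SD, n = 3) in Con and 1106 ± 343 in STZ, and 954 ± 145 and 996 ± 203 in A10-FMT and Con-FMT. It differed by 1.27 ± 0.26 in STZ against Con (adjusted p = 0.00387) and stayed near the STZ level after transplantation. Klf9, a receptor-induced transcription factor, was 15.4 ± 0.783 RPKM in Con and 27.7 ± 4.23 in STZ, and 15.2 ± 0.850 and 19.3 ± 1.28 in A10-FMT and Con-FMT, where A10-FMT overlapped Con. Klf9 differed by 0.80 ± 0.11 in STZ against Con (adjusted p = 0.000623). Of the 21 genes, 1 was called lower when A10-FMT was set against STZ and 0 for Con-FMT (medians -0.69 and -0.63). Without STZ 3 it was 10 in each, but calls over all genes rose greatly too.

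**Figure D4:**
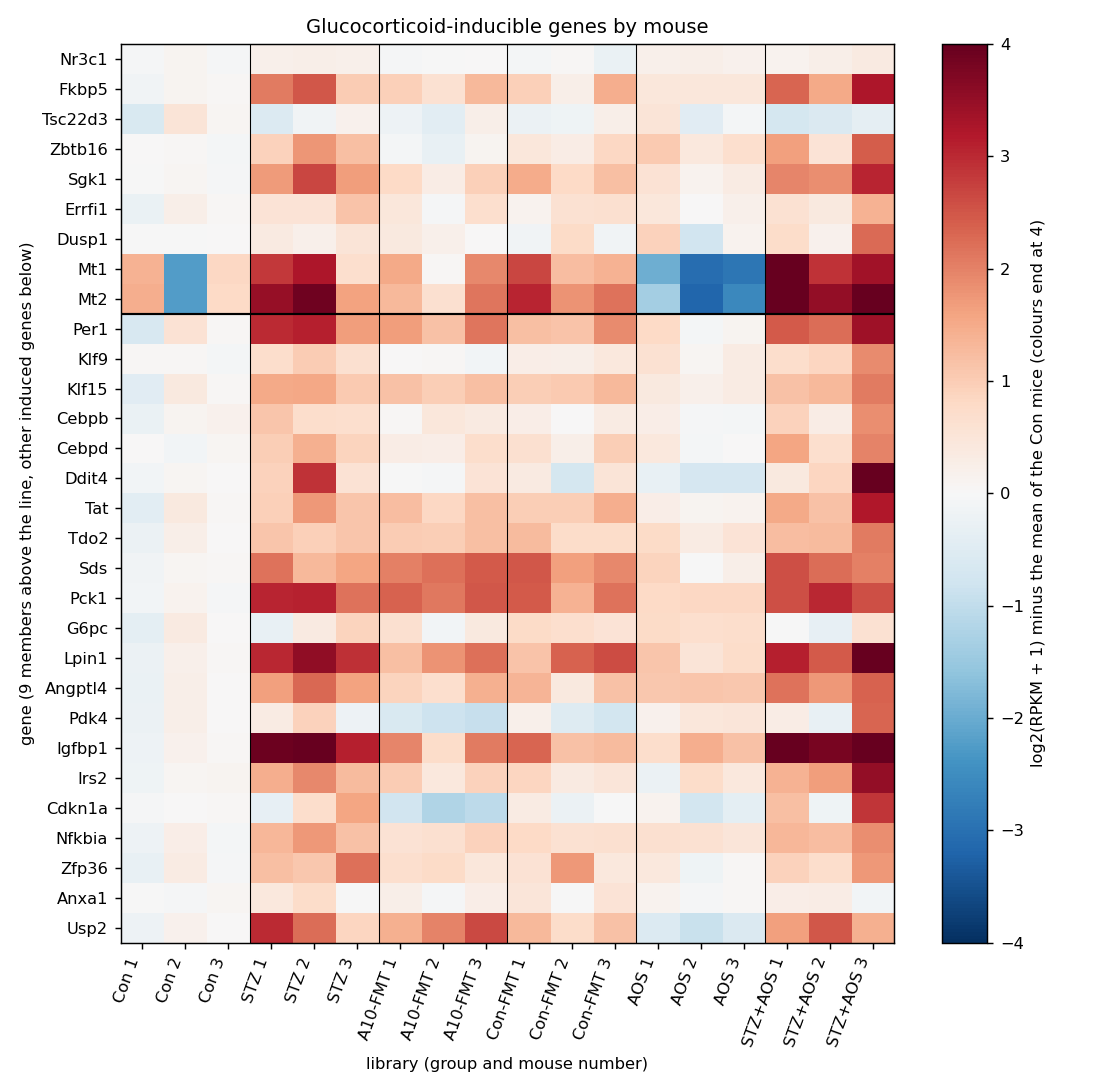
Heat map of log2(RPKM + 1) minus the Con mean for the 9 members (above the line) and the 21 other inducible genes that were tested, 1 column per library. Red, above Con, fills most of the STZ and STZ+AOS columns and is paler after transplantation, Tsc22d3, G6pc and Anxa1 stay pale throughout, and STZ+AOS 3 is the highest library for 6 members.

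Among all mice STZ+AOS 3 stood out. It had the highest value of the 18 libraries for 6 of the 9 members and for 16 of the 23 other inducible genes. Fam107a, a stress-induced actin regulator of that list, was 21.5 RPKM in STZ+AOS 3 and at most 0.26 in every other mouse, and Igfbp1 was 3757 RPKM against at most 976 elsewhere. Tsc22d3 was 39.2 RPKM in that mouse, within the range of Con. The same library held the pancreatic transcripts named above, including Pnlip, pancreatic lipase, at 7.23 RPKM against at most 0.15 elsewhere, and their part in its high values was not tested. Without STZ+AOS 3 the same number of members, 4, was called in STZ+AOS against AOS, and 15 of the induced list, of which 14 were higher and 1 lower.

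Of 17 chaperones and cofactors of the receptor few were called beside the 38.5% of all genes called in STZ against Con. Of the 17 genes, 4 were called higher and 0 lower in STZ against Con (median 0.25): Bag1 (0.73 ± 0.11, adjusted p = 0.00106), the coactivator Ncoa2 (0.44 ± 0.09, adjusted p = 0.00351), the co-chaperone Sgta (0.41 ± 0.10, adjusted p = 0.00927) and the corepressor Ncor1 (0.38 ± 0.11, adjusted p = 0.0174). The corresponding counts in STZ+AOS against AOS were 5 and 0 (median 0.24, against 0.21 for all genes). After median-ratio scaling the calls were 1 higher and 2 lower in the first contrast and 1 higher and 1 lower in the second, so their direction followed the scaling.

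Genes that set hormone exposure were tested as a list of 8, of which 6 passed the filter. In STZ against Con 5 were called higher and 1 lower (median 0.91), where 38.5% of all genes were called. Hsd11b1, which regenerates active hormone within hepatocytes, was 372 to 495 RPKM in Con and 546 to 720 in STZ, a difference of 0.56 ± 0.16 (adjusted p = 0.0180). H6pd, which supplies its cofactor, differed by 0.32 ± 0.11 (adjusted p = 0.0385). Serpina6, corticosteroid-binding globulin, differed by 1.57 ± 0.56 (adjusted p = 0.0456), but its STZ mice ranged from 198 to 1354 RPKM. Abcb1a, a steroid exporter, differed by 1.46 ± 0.20 (adjusted p = 0.000625), Akr1d1, which inactivates the hormone, by 1.26 ± 0.21 (adjusted p = 0.00155) and Srd5a1, another reductase, by -1.41 ± 0.51 (adjusted p = 0.0488), although STZ 3, at 25.4 RPKM, lay above every Con mouse and only STZ 1 and STZ 2, at 3.84 and 3.56, below. Only 3 were called without Con 3. With AOS in both groups 3 were called higher and 1 lower (median 0.61), and neither Hsd11b1 (0.10 ± 0.15, adjusted p = 0.642) nor Serpina6 (0.68 ± 0.61, adjusted p = 0.399) passed.

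Zinc handling genes were set beside the metallothioneins, and the part of zinc in the metallothionein levels was not tested. Mtf1, the factor of the MREs printed above, was 2.04 to 2.08 RPKM in Con and 1.60 to 2.39 in STZ (-0.10 ± 0.12, adjusted p = 0.507). Slc30a1, the zinc exporter and another Mtf1 target, was 6.03 to 6.18 RPKM in Con, 6.85 to 13.6 in STZ, 5.39 to 5.86 in AOS and 7.66 to 16.5 in STZ+AOS. It was higher by 0.53 ± 0.17 in STZ against Con (adjusted p = 0.0302) and by 0.88 ± 0.21 in STZ+AOS against AOS (adjusted p = 0.00558), and it was 5.70 to 6.33 in the transplanted mice. The importer Slc39a14 was higher by 0.63 ± 0.12 (adjusted p = 0.00260) and Slc39a4 lower by -0.58 ± 0.11 (adjusted p = 0.00252) in STZ against Con. Over the list, 2 of 10 genes were called higher and 1 lower there (median 0.04), and 3 higher and 2 lower in STZ+AOS against AOS (median 0.21), where the total was 3 without STZ+AOS 3 and also without AOS 3. The shares of all genes called in these contrasts were 38.5% and 37.9%.

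Other phosphatases and inhibitors of the MAP kinase and EGF receptor pathways, with receptors of the EGF family, were set beside Errfi1 and Dusp1. Among all genes 38.5% were called in STZ against Con and 37.9% in STZ+AOS against AOS. In STZ against Con 7 of 10 were called higher and 1 lower (median 0.75), led by Spred1 (0.97 ± 0.09, adjusted p = 0.000190) and Dusp3 (1.13 ± 0.18, adjusted p = 0.00148), and with the receptor Erbb3 among those higher. The receptor Egfr was the gene called lower (-1.14 ± 0.40, adjusted p = 0.0419), at 32.0 and 44.6 RPKM in STZ 1 and STZ 2 but 136 in STZ 3, above all Con mice. For STZ+AOS against AOS 7 of 11 were called higher and 0 lower (median 0.67). Relatives and partners of Sgk1 and Tsc22d3 numbered 9, with 6 called higher and 1 lower in STZ against Con (median 0.44). Sgk2 was higher by 1.10 ± 0.23 (adjusted p = 0.00492), and within the Tsc22d family Tsc22d4 was higher (1.08 ± 0.20, adjusted p = 0.00252) and Tsc22d1 lower (-1.71 ± 0.47, adjusted p = 0.0162). The counts were 5 and 2 for STZ+AOS against AOS (median 0.41).

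Clock genes differed in the same streptozotocin contrasts. Of 14, 8 were called higher and 3 lower in STZ against Con (median 0.82), where 38.5% of all genes were called. In STZ+AOS against AOS, where 37.9% were, 7 were called higher and 1 lower (median 0.83). Dbp, a clock output gene, was 0.66, 0.58 and 0.68 RPKM in Con, 88.0, 18.7 and 6.75 in STZ, 62.3 to 80.3 and 27.3 to 53.9 in A10-FMT and Con-FMT, 0.36 to 3.41 in AOS and 16.6 to 76.5 in STZ+AOS. Dbp differed by 3.86 ± 0.64 in STZ against Con (adjusted p = 0.00155), Nr1d2 by 2.81 ± 0.24 (adjusted p = 0.000102), Nr1d1 by 3.19 ± 0.34 (adjusted p = 0.000326) and Tef by 2.33 ± 0.37 (adjusted p = 0.00131). Npas2 (-1.37 ± 0.28, adjusted p = 0.00387), Nfil3 (-1.10 ± 0.21, adjusted p = 0.00325) and Cry1 (-0.84 ± 0.23, adjusted p = 0.0141) were lower. The Dbp mean was 37.8 RPKM for STZ, 73.7 for A10-FMT and 39.7 for Con-FMT, so by the mean Con-FMT stood near STZ. All 6 transplanted mice had Dbp above the STZ median of 18.7 but below STZ 1 at 88.0. Fkbp5, Zbtb16 and Sgk1 had lower means in both transplanted groups than in STZ. Against STZ the clock median was -0.04 for A10-FMT, with 6 of 14 genes higher, and -0.26 for Con-FMT, with 3 higher. The member medians were -0.90 and -0.48. Because clock genes went in both directions, a median near 0 does not mean that they were unchanged. Between A10-FMT and Con-FMT 8 of the 14 clock genes did not overlap, where 8.92% of all genes did not, and 0 were called. In AOS against Con limma called 0 of 14 clock genes, with 2 at an unadjusted p under 0.05: Nr1d1 (2.45 ± 0.42) and Nr1d2 (1.39 ± 0.24, both adjusted p = 0.0959) stood above Con in 3 of 3 mice. The hour of sampling is not in the labels, and its part in the member levels was not tested.

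Immediate-early genes separated single mice. Fos, picked after its values were seen, was 98.0 RPKM in STZ 3 and 84.4 in Con-FMT 2 and at most 7.54 in every other mouse. Egr1, likewise picked, was 155 and 70.8 in the same mice and at most 23.6 elsewhere. Dusp1, which immediate-early signals also induce, was 17.9 in STZ 3 and 21.4 in Con-FMT 2, the highest mouse of each group. Fkbp5 was the lowest of its group in both. Dusp1 was higher still in STZ+AOS 3 (61.9) and AOS 1 (24.1), where Fos was 3.66 and 0.63. The part of immediate-early signals in the member levels was not tested. Over the list of 16, 7 of 14 tested were called higher and 0 lower in STZ against Con (median 1.30), led by Ier3 (1.61 ± 0.19, adjusted p = 0.000453) and Junb (2.15 ± 0.33, adjusted p = 0.00109), and 6 higher and 0 lower in STZ+AOS against AOS (median 1.24). These counts stand beside 38.5% and 37.9% of all genes called in the same contrasts.

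**Figure D5:**
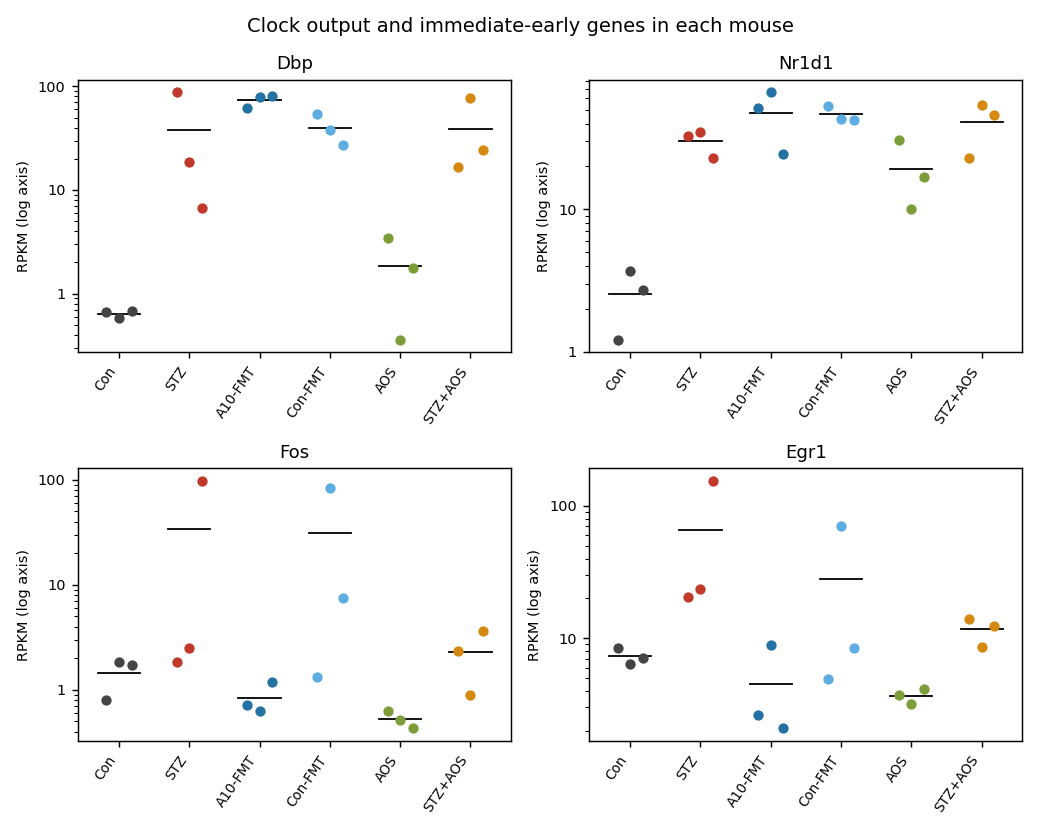
RPKM on a log axis for the clock genes Dbp and Nr1d1 and the immediate-early genes Fos and Egr1, 1 point per mouse with a bar at the group mean (n = 3). Dbp is under 1 in all Con mice and above 6 in all streptozotocin-treated mice, and Fos is high only in STZ 3 and Con-FMT 2.

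Markers of other cells were summed by type. Their counts of calls stand beside the 38.5% of all genes called in STZ against Con and 37.9% in STZ+AOS against AOS. Kupffer cell markers summed to 52.8 to 82.2 RPKM in Con and 83.3 to 188 in STZ, with 2 of 6 called higher, and to 66.7 to 93.7 in AOS and 95.3 to 129 in STZ+AOS, with 1 of 6 called higher. Stellate cell markers summed to 70.4 to 81.9 in Con and 106 to 130 in STZ, with 1 of 5 called higher, and 0 without Con 3. Endothelial markers had 2 of 5 called higher and cholangiocyte markers 0 higher and 1 lower of 3. Neutrophil and monocyte markers, of which 3 were tested, had 1 called lower, and erythroid markers, of which 4 were tested, 1 lower. Of the hepatocyte markers 2 of 6 were called higher and 2 lower, and 0 lymphocyte markers passed the filter. Of the acinar list, Cela1 carried the level outside STZ+AOS 3, at 30.8 to 40.5 RPKM in Con and 2.96 to 8.73 in STZ, and was called lower. The sum of the list was 73.6 in STZ+AOS 3, and Cpb1, Ctrb1 and Prss2 were at 0 in every STZ mouse. The part of cell composition in the member levels was not tested.

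The members varied together in sets. Over the 18 libraries Pearson's r was 0.936 between Fkbp5 and Sgk1, 0.840 between Zbtb16 and Sgk1 and 0.815 between Fkbp5 and Zbtb16. With group means removed these were 0.798, 0.807 and 0.773. STZ+AOS 3 was the highest library for Fkbp5, Sgk1 and Zbtb16, at 49.9, 55.1 and 11.0 RPKM, and r was not computed without it. Tsc22d3 had r between -0.47 and 0.17 with every other member, though 0.725 with Errfi1 within groups. These are descriptions over libraries that share treatments.

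The non-members most like each gene over the 18 libraries were found by Pearson's r in the same way. They were Ppp1cb, Eif4g2 and Crk for Sgk1 (0.986 to 0.976), Eef2, Slc19a1 and Dclre1b for Fkbp5 (0.968 to 0.963), and Rad54l2, Csnk1d and Strn4 for Zbtb16 (0.949 to 0.931). Nnmt, nicotinamide N-methyltransferase, led for both Mt1 (0.949) and Mt2 (0.953), followed by Dph3 and Dnajc2 for Mt1 and Man2a1 and Dph3 for Mt2. Thrb, the thyroid hormone receptor beta, led for Nr3c1 (0.899), followed by Zfyve1 and Gigyf1. Errfi1 was most like Mia2, Nup153 and Snrnp200 (0.892 to 0.890) and Dusp1 most like Zbtb7a, Washc2 and Pik3r4 (0.850 to 0.841). The closest to Tsc22d3, Zfp605, Taf1 and Plekhb1, reached only 0.749 to 0.741.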

How the data were processed

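Liver mRNA from 6 groups of 3 mice was analysed. The authors deposited RPKM values for 19057 gene symbols, rounded to 2 decimals. Per the paper's methods reads were aligned with SOAPaligner, while the submitters' processing notes name Bowtie 0.12.2 and mm10; the annotation and strand setting are not given in the sources used here. RPKM keeps no depth. In 5 genes listed at 0 in 6 or more libraries, the lowest step above 0 varied by 1.075 to 1.363 times over the 5 to 10 libraries that held it, so depths there differed modestly, but their size is unknown.

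log2(RPKM + 1) was tested with limma 3.58.1 (R 4.3.3; trended variance, Benjamini-Hochberg), for genes at 1 RPKM or more in at least 3 libraries. Contrasts among Con, STZ, A10-FMT and Con-FMT used those 12 libraries, and contrasts with AOS or STZ+AOS used all 18. Tested on simulated data for STZ against Con with 10602 genes, 191 of 200 genes changed by 2 on the log2 scale were recovered, with 12 false calls.

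The members and lists were chosen with earlier results of these data known. Besides the members, up to 4 higher and 4 lower genes of each list with the smallest adjusted p could be named, as well as Per1, Tat, Klf9, Hsd11b1, Serpina6, Mtf1 and Slc30a1. 1 further gene that the rule would name is not reported here. Same-numbered libraries of A10-FMT and Con-FMT deviated together weakly (r 0.122, 0.292 and 0.179). The values given for that contrast are from the fit without pairing, and the replicate block changed no member call there. Alternatives were another scaling, pseudocount, filter, set of libraries and the replicate block. Figures were drawn with matplotlib 3.10.9. Gene positions are from GENCODE M21 and promoters from RefSeq, both GRCm38.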

Additional observations from a re-analysis of the deposited data

How the results depend on the processing

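Of 973 alternative values of the members' log2 differences, 945 stayed on the same side of the threshold, 14 gained a call and 14 lost one, and none reversed a call; 37 of the uncalled values changed sign. The count of members called in STZ against Con was 4 to 6 in every setting, and in STZ+AOS against AOS 4 to 7 when 1 library was left out (7 without STZ+AOS 2) and 4 in every other setting. In A10-FMT against STZ the 1 member called became 2 with median-ratio scaling and 0 with no filter on low values, with at least 1 RPKM in every library, with all 6 groups in the fit and with only the groups compared, and leaving out 1 library gave 0 to 3. The 1 inducible gene called there became 0 with no filter, all 6 groups or only the groups compared, and 0 to 10 without 1 library. In Con-FMT against STZ 2 inducible genes were called with median-ratio scaling, 0 to 10 without 1 library, and 0 to 4 members without 1 library, the upper ends without STZ 3. Without STZ 3 the genes called in all numbered 1343 for A10-FMT and 1636 for Con-FMT, against 24 and 1 with it. The cause of these changes was not tested. In STZ against Con, Errfi1 was not called with median-ratio scaling (0.47) or without STZ 3, Con 1 or Con 3, and Mt2 was not called with only the groups compared or without STZ 1 or STZ 2. Mt1 was called with all 6 groups in the fit and without STZ 3 (3.03). These calls are descriptions, since the list was drawn up with that comparison known.

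With the replicate number as a block, 5 members were called in STZ against Con, 4 in STZ+AOS against AOS and 1 when A10-FMT was set against STZ, as without it, and 0 in the other comparisons. Genes called in STZ against Con went from 4087 to 3714. Same-numbered libraries of STZ and Con did not deviate together (r -0.123, -0.142 and -0.066), so there they share a number only. Leaving out Con 3 and AOS 3 together was chosen after seeing the data.

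With 3 libraries a group, RPKM rounded to 2 decimals and no read counts, small differences of the less abundant members, such as Zbtb16, were not detectable, and counting error is unknown.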

Other observations

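Con 3 lay between the other Con mice for 6 of the 9 members (not for Zbtb16, Sgk1 and Dusp1), and AOS 3 between the other AOS mice for 8 of 9 (not for Nr3c1). Con 1 was the lowest of the 18 libraries for 13 of the 23 other inducible genes. Per1, a clock repressor with a receptor-driven promoter, had group means of 1.37 RPKM in Con and 1.80 in AOS, 13.8 in STZ and 14.5 in STZ+AOS, and 6.38 and 5.13 in A10-FMT and Con-FMT, above the Con and AOS means in every streptozotocin-treated group. Its difference was 2.60 ± 0.41 in STZ against Con (limma adjusted p = 0.00128).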
